A study of Homo sapiens with 8 samples.

Results

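ETV1, ETV4 and ETV5 form the PEA3 group of ETS transcription factors, and they were followed here in HEL cells, a human erythroleukaemia line that depends on an activated JAK2 kinase. The members are the 3 genes of the group, out of 17958 genes with a probe set of their own, and their probe sets were chosen by mean signal, the highest among those annotated to the gene alone. Each had exactly 1 such probe set, so the signal decided nothing in this choice, and all 3 passed the filter on dim genes. The group was proposed with results of these arrays in view, in which ETV4 and ETV5 had been seen to fall with both agents together. That comparison describes them and is no independent evidence. Every other comparison with the combination arrays, and the interaction, uses those same arrays and is no independent evidence either. The comparisons of a single agent with control share the control arrays from which that fall was seen, so they are not independent of it. Cells were exposed for 48 h to DMSO as the vehicle control, to 0.5 µM LY2784544, a JAK2 inhibitor, to 20 µM GRN163L, an oligonucleotide inhibitor of telomerase, or to both agents, whose doses in the combined arm the labels do not restate. The 4 groups had 2 arrays apiece, with experiments 1 and 2 made separately, and all came from a single cell line. Values are log2 RMA signals, a normalized array brightness on a scale where 1 unit is a doubling, given as mean ± SD over the 2 arrays.

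PEA3 factors bind DNA through an ETS domain that reads a GGAA core, and they act mostly as transcriptional activators. Signalling from receptor tyrosine kinases and cytokine receptors through RAS and ERK raises their transcription, in part by lifting repression by Capicua (CIC), and raises their activity by phosphorylation. The proteins are marked for degradation by a ubiquitin ligase that contains COP1 and DET1. ETV1, ETV4 and ETV5 are known for roles in branching of epithelial organs, in nerve and germ cells and as oncogenes in prostate cancer and sarcoma, and blood cells are not their best-studied setting.

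ETV1 (NCBI gene 2115) lies on chromosome 7 from 13891229 to 13991425, ETV4 (gene 2118) on chromosome 17 from 43527846 to 43546340, and ETV5 (gene 2119) on chromosome 3 from 186046314 to 186109089, all in GRCh38.p14. RefSeq's table of promoters, with 250 bases before and 50 after a start of transcription, held 6 windows for ETV1, of which 4 overlap in pairs. They were searched on both strands for the octamers TGAATGAA and TGAATGGA, which CIC is known to bind, and for TTCNNNGAA, the palindrome that STAT proteins bind downstream of JAK kinases. There was no window for ETV4 or ETV5, so neither was searched. The window shown is the 1 of 6 for ETV1 that held a match. It is TGAATGGA on the gene's own strand, beginning 125 bases before the start of transcription and set in capitals. Of 35116 windows of the same length over all genes, 1.03% held TGAATGGA and 2.63% held either octamer, against 7.66% with the STAT palindrome, so a match describes these letters and shows no binding. The window lies at chr7:13991376-13991675, minus strand, GRCh38.p14.
ETV1 promoter window: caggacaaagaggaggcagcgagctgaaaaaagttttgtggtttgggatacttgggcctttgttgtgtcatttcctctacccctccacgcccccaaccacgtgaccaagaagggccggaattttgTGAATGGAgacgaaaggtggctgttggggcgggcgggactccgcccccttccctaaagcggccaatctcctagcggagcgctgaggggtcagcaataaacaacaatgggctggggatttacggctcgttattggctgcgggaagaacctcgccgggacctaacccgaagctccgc

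Markers of the labelled line were present. The 9 of 12 erythroid and megakaryocyte markers with a probe set of their own all passed the filter, with a mean level of 9.58 to 10.18 per array, and of the markers of other cell types the filter was passed by 2 of 5 for T cells (CD2 and CD5), none of 3 for B cells, 2 of 3 for monocytes (CSF1R and LYZ), 2 of 5 for fibroblasts (COL1A1 and COL1A2) and 3 of 5 for epithelium (KRT8, KRT18 and KRT19). The mean level of each of these lists of other cell types lay between 3.35 and 6.30 on every array. The brightest single markers in them were LYZ, at 10.26 to 10.69, and KRT18, at 7.87 to 9.25. The part of these lists in the results was not tested. The median of the tested genes ran from 7.23 to 7.51 over the arrays. The mean of these medians fell by 0.10 from control to LY2784544, by 0.175 from control to the combination, by 0.19 from GRN163L to the combination and by 0.12 from GRN163L to LY2784544. The median over all probe sets did not fall in this way. It was 5.07 and 5.12 in control, 5.21 and 5.12 with LY2784544, and 5.25 and 5.19 with the combination. On arrays set to one median, that of the tested genes, no PEA3 factor changed direction. Nothing in the labels says what separated the experiments, so a p-value here reflects how far these particular cultures and arrays differed, and the comparisons with control share the same 2 control arrays.

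ETV1 rose with the JAK2 inhibitor alone and fell, against the same controls, when the telomerase inhibitor was given with it. Its control arrays read 5.44 and 5.69 in experiments 1 and 2, those with LY2784544 6.92 and 6.61, those with GRN163L 5.18 and 5.40, and those with the combination 4.32 and 4.58. The LY2784544 arrays were the highest and the combination arrays the lowest, no group overlapped another, and the combination lay around the filter level of 4.37, where RMA compresses differences. With LY2784544 alone ETV1 rose from 5.57 ± 0.18 to 6.77 ± 0.22, a log2 change of 1.20 (SE 0.19, 95% interval 0.77 to 1.63, limma adjusted p = 0.0237), or 2.30-fold. In bulk RNA a change in the share of cells that express a gene and a change in RNA per cell cannot be told apart, here and below. The call came where 0.39% of the 12570 genes tested were called higher, and 160 (1.27%) in either direction, or 345 with the experiment as a block. On arrays set to one median 63 were called higher and 89 lower, against 49 and 111. The rise was 1.48 in experiment 1 and 0.92 in experiment 2. The adjusted p ran from 0.0138 to 0.163 over the alternatives: it was 0.163 without the first control array, 0.0844 without the second, 0.126 without the LY2784544 array of experiment 1, 0.0601 without either GRN163L array, 0.0791 with both LY2784544-treated arrays of experiment 1 left out and 0.0545 in a fit of the compared groups alone.

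With both agents ETV1 lay below control. The combination stood at 4.45 ± 0.18, a change of -1.11 (SE 0.19, 95% interval -1.54 to -0.69, limma adjusted p = 0.0219), which was -1.12 in experiment 1 and -1.11 in experiment 2. In that comparison 2.71% of genes (341) were called lower and 436 (3.47%) in either direction, against 1382 with the block. On one median 174 were called higher and 184 lower, against 95 and 341, so the excess of lower calls depends on that scaling. On arrays set to one median the change was -0.94. The call was lost without the first control array (adjusted p = 0.0698), the second (0.121), the combination array of experiment 1 (0.11), either GRN163L array (0.0522), both LY2784544-treated arrays of experiment 1 (0.0781) and in a fit of the compared groups alone (0.0566), over a range of 0.0114 to 0.121 among the alternatives. Against LY2784544 the combination was lower by 2.31 on the log2 scale (change -2.31, SE 0.19, adjusted p = 0.00301), a 4.98-fold difference, and this kept its call without any single array.

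**Figure D1:**
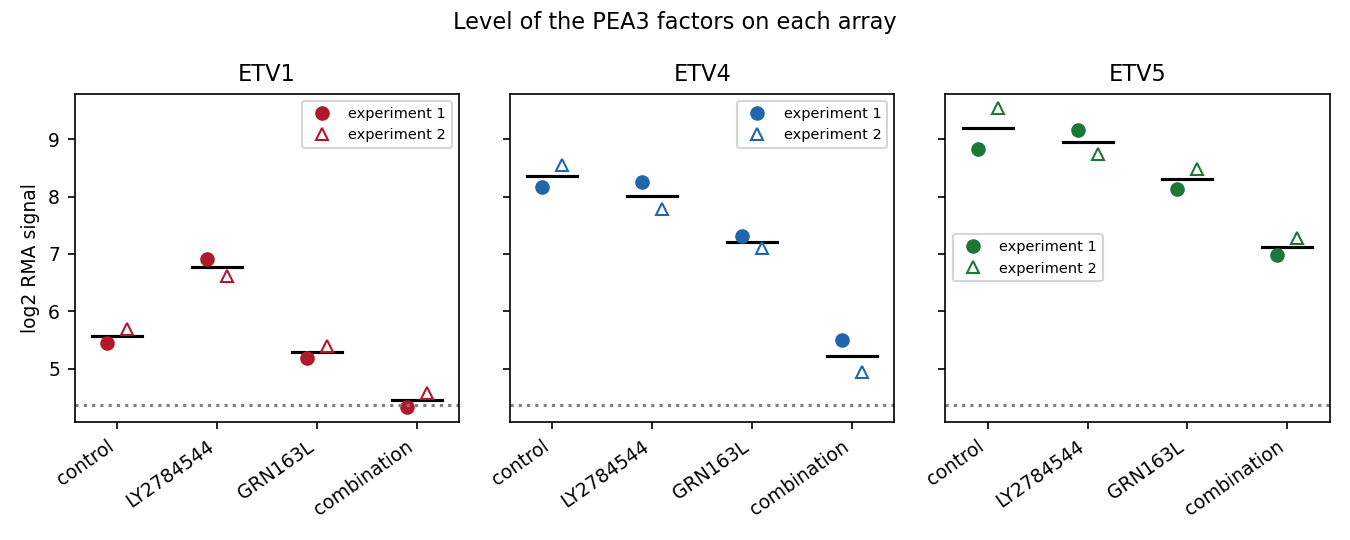
Level of ETV1, ETV4 and ETV5 on each of the 8 arrays as log2 RMA signal, by treatment group, with circles for experiment 1, triangles for experiment 2, a bar for the mean of each pair and a dotted line at the filter level of 4.37. ETV1 is highest with LY2784544 (6.92 and 6.61), while ETV4 and ETV5 have their lowest pair with the combination, as has ETV1.

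ETV4, also known as E1AF and the founding member of the group, had the widest span. Its control arrays read 8.16 and 8.55, those with LY2784544 8.26 and 7.78, those with GRN163L 7.32 and 7.11, and those with the combination 5.50 and 4.94. The LY2784544 arrays overlapped the controls, the GRN163L arrays lay below both, and the combination lay apart at the bottom. LY2784544 alone gave a change of -0.34 (SE 0.25, 95% interval -0.90 to 0.23, limma adjusted p = 0.637), with 0.10 in experiment 1 and -0.77 in experiment 2, and a range of -0.57 to -0.10 without 1 array in turn.

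GRN163L alone gave ETV4 a change of -1.14 (SE 0.25, 95% interval -1.71 to -0.57), with -0.84 in experiment 1 and -1.44 in experiment 2, which did not pass over all genes (limma adjusted p = 0.594). In that comparison limma called 0 of the 12570 genes (0%), with or without the block, 6 in a fit of the 2 groups alone, and 595 had an unadjusted p below 0.05, where 628 would by chance if no gene changed. By size of its fall ETV4 was 23rd from the lowest of 12570 there. ETV4 had been seen to fall in the combination against control before the group was chosen. Its rank and call there describe it and are no independent evidence. The combination was 8.79-fold below control, the third largest fall of that comparison, and at -2.66 in experiment 1 and -3.61 in experiment 2. The call held without any single array.

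The fall of ETV4 from either single agent to the combination was tested as well. Against LY2784544 the change was -2.80 (SE 0.25, 95% interval -3.37 to -2.23, limma adjusted p = 0.00301), or 6.96-fold, the second largest fall in that comparison, with -2.76 in experiment 1 and -2.84 in experiment 2. Against GRN163L it was -1.995 (SE 0.25, 95% interval -2.56 to -1.43, adjusted p = 0.0174), or 3.99-fold, with -1.82 and -2.17. Without the GRN163L array of experiment 1 the latter had an adjusted p of 0.187, and without that of experiment 2 of 0.185, over a range of 0.00916 to 0.187 among the alternatives.

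ETV5, also called ERM, resembled ETV4 in the order of its group means. Its control arrays read 8.84 and 9.54, those with LY2784544 9.17 and 8.74, those with GRN163L 8.13 and 8.48, and those with the combination 6.98 and 7.27. Control and LY2784544 overlapped, GRN163L lay below both, and the combination was lowest. LY2784544 alone gave -0.23 (SE 0.27, 95% interval -0.84 to 0.37, limma adjusted p = 0.767), with 0.33 in experiment 1 and -0.80 in experiment 2, and 0.11 without the control array of experiment 2, which was the highest of the 8. GRN163L alone gave -0.89 (SE 0.27, 95% interval -1.49 to -0.28, adjusted p = 0.906), and -0.54 without that same control array.

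ETV5, too, had been seen to fall in the combination against control before the group was chosen, so that comparison only describes it. The combination took ETV5 from 9.19 ± 0.49 to 7.13 ± 0.21, with -1.86 in experiment 1 and -2.27 in experiment 2. Against control its adjusted p was 0.00827 by limma and 0.057 without the control array of experiment 2 (range over the alternatives 0.00469 to 0.057). Against LY2784544 ETV5 was 3.56-fold lower (-1.83, SE 0.27, adjusted p = 0.0341). That call was lost without the LY2784544 array of experiment 1 (0.121), without either GRN163L array (0.0895), without the combination array of experiment 1 (0.151) or 2 (0.0521), without both LY2784544-treated arrays of experiment 1 (0.282) and in a fit of the compared groups alone (0.178), over a range of 0.0217 to 0.282. Against GRN163L the change was -1.18 (SE 0.27, 95% interval -1.78 to -0.58) and did not pass (adjusted p = 0.108).

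Adding GRN163L to LY2784544 lowered the whole group, as the combination did against control. Both comparisons use the combination arrays in which the fall of ETV4 and ETV5 had been seen, so neither is independent evidence. All 3 factors fell, where 29 of 12570 genes (0.231%) were called lower and 39 (0.31%) in either direction, or 201 with the block, and 18 higher and 31 lower on one median. ETV4 was second, ETV1 11th and ETV5 29th from the lowest of all genes. A fit of these 2 groups alone called no gene by limma, with adjusted p of 0.105 for ETV1 and 0.122 for ETV4 and the changes themselves as before, while 1696 genes had an unadjusted p below 0.05 in the fit of all arrays.

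Adding LY2784544 to GRN163L lowered ETV4, where 0.469% of genes were called lower and 68 (0.541%) in either direction, or 212 with the block, and 13 higher and 23 lower on one median. ETV1 had a change of -0.84 (SE 0.19, 95% interval -1.27 to -0.41), with -0.86 and -0.82 in the 2 experiments, and did not pass (limma adjusted p = 0.108, or 0.0583 with the block). ETV1 was thus higher with LY2784544 in both experiments when LY2784544 was given alone and lower in both when GRN163L was present.

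The single agents also differed from each other. ETV1 was 2.78-fold higher with LY2784544 than with GRN163L (1.48, SE 0.19, limma adjusted p = 0.0131), among 0.231% of genes called higher and 132 (1.05%) called in either direction, or 441 with the block, and 52 higher and 69 lower on one median. The call was lost without the LY2784544 array of experiment 1 (0.0596) or the GRN163L array of experiment 1 (0.144) or 2 (0.135), over a range of 0.00838 to 0.144. ETV4 was at 0.81 (adjusted p = 0.175) and ETV5 at 0.65 (adjusted p = 0.304) in that comparison, with intervals of 0.24 to 1.37 and 0.05 to 1.25, and neither passed.

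**Figure D2:**
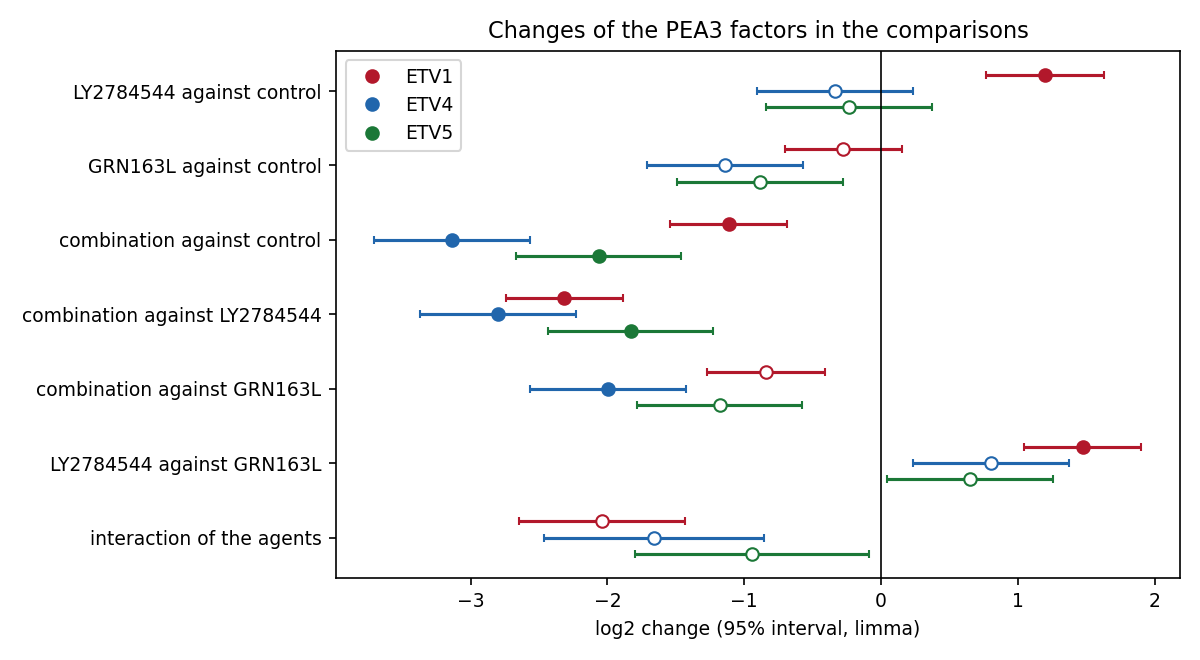
Log2 change of each PEA3 factor in the 7 comparisons with its 95% interval from limma, filled where the gene was called and open where it was not. ETV1 lies at 1.20 with LY2784544 alone and at -1.11 with the combination, and all 3 intervals lie below 0 when the combination is set against either single agent.

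The interaction, which is the change with both agents minus the sum of the changes with each alone, was below 0 for every member. For ETV1 the single changes summed to 0.93, which would put the combination at 6.49 against the 4.45 measured, a difference of -2.04 (SE 0.27, 95% interval -2.65 to -1.43) with -2.34 in experiment 1 and -1.74 in experiment 2. It was the third smallest p of all genes and did not pass (limma adjusted p = 0.152, 0.104 with the block). ETV4 had an interaction of -1.66 (SE 0.35, adjusted p = 0.566), from an additive level of 6.88 to 5.22, and ETV5 one of -0.94 (SE 0.38, adjusted p = 0.999), from 8.07 to 7.13. Limma called 0 of the 12570 genes (0%) for the interaction, as did the block, with 464 at an unadjusted p below 0.05 against 628 by chance.

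The order of the group means was control, LY2784544, GRN163L and combination for ETV4 and ETV5, and LY2784544, control, GRN163L and combination for ETV1. Neighbours in that order that did not pass the test were control and LY2784544 for ETV4 and ETV5, LY2784544 and GRN163L for ETV4 and ETV5, control and GRN163L for ETV1 (-0.28, adjusted p = 0.995), and GRN163L and combination for ETV1 and ETV5. Across the 8 arrays, which share these treatments and experiments, Pearson's r was 0.957 between ETV4 and ETV5, 0.771 between ETV1 and ETV4 and 0.795 between ETV1 and ETV5, as a description. In the same order r was 0.301, 0.121 and 0.936 once the group means were taken out, also as a description.

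The genes most like each factor over the 8 arrays by Pearson's r differed much in how far they moved. For ETV4 they were SLX9 (0.988), the interferon gamma receptor chain gene IFNGR2 (0.987), HACL2 (0.985), DAPK3 (0.985) and MRC2 (0.984), of which MRC2, a collagen-binding endocytic receptor, went from a mean of 7.32 in control to 5.08 with the combination and SLX9 from 10.11 to 9.57. For ETV5 they were SUN1 (0.991), FLOT1 (0.984), DAPK3 (0.984), TMEM163 (0.978) and NOP14 (0.977). DAPK3, a death-associated protein kinase, stood in both lists and moved from 6.72 to 5.98. For ETV1 they were CD74 (0.980), YIPF1 (0.964), RPL35A (0.963), NT5C3B (0.961) and LSM10 (0.959). CD74, the invariant chain of HLA class II, had means of 9.42 (control), 9.90 (LY2784544), 9.35 (GRN163L) and 8.93 (combination), the order of ETV1 over a narrower span.

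The rest of the ETS family was tested beside the PEA3 factors. Of 25 other ETS genes, 18 passed the filter and 1 was called in any of the 7 comparisons. It was called lower in the combination against control, where 2.71% of all genes tested were. With the experiment as a block ELK3, ERF and FEV were called lower in the combination against control, where 8.15% of all genes were, and FEV also against LY2784544, where 1.03% were. In the combination against control 10 of the 18 were lower and 8 higher, with a median of -0.09, against -0.07 over all genes tested. The brightest 4 were ETS2 (0.19), ETS1 (-0.14), ELF1 (0.12) and ETV6 (-0.08), none called, and on arrays set to one median ETS1 and ETV6 lay above 0. These encode widely expressed blood cell factors, ETV6 a repressor. The called gene was FEV, an ETS factor known from serotonergic neurons. Its arrays read 6.37 and 6.84 for control, 7.15 and 6.41 for LY2784544, 5.88 and 5.58 for GRN163L and 5.39 and 5.26 for the combination. Control and LY2784544 overlapped and the combination was lowest. FEV fell by 1.28 with the combination against control (SE 0.27, limma adjusted p = 0.0407), a call lost without any one of the control, GRN163L or combination arrays (adjusted p from 0.0729 to 0.186), with no filter (0.0512), on one median (0.0706) and in a fit of the compared groups alone (0.0506), over a range of 0.0175 to 0.186.

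Genes that ERK signalling is known to induce beside the PEA3 factors were lower with the combination without passing singly. Of 16 listed, 14 passed the filter, 13 of them were lower in the combination against control, with a median of -0.79 against -0.07 over all genes, and limma called none of them, though 8 of the 14 were called lower once the experiment entered as a block, where 8.15% of all genes were. DUSP6, the phosphatase that inactivates ERK, read 8.02 and 9.64 on the control arrays, 8.10 and 8.62 on those given LY2784544, 7.87 and 8.41 on those given GRN163L and 6.84 and 7.91 on the combination arrays. The control pair lay farther apart than any 2 of the group means, and the combination array of experiment 2 lay within the range of the GRN163L pair. DUSP6 was at -1.46 in the combination against control (SE 0.52, adjusted p = 0.144, or 0.0157 with the block), SPRY2, a Sprouty inhibitor of receptor signalling, at -0.78 (adjusted p = 0.116, or 0.0227) and DUSP4, another such phosphatase, at -0.80 (adjusted p = 0.0571, or 0.0274). Without the control array of experiment 2 they were at -0.65, -0.47 and -0.56, and without that of experiment 1 DUSP6 was at -2.27, while DUSP6 was at -0.92 without the combination array of experiment 1. SPRY4 was below the filter. With LY2784544 alone 13 of the 14 were lower (median -0.43), and with GRN163L alone 12 (median -0.34), against medians of -0.04 and 0.005 over all genes.

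Of 21 genes of the ERK cascade itself, from adaptor proteins to the kinases, 14 had a probe set of their own, and none was called in the 7 comparisons. Their median in the combination against control was -0.07, the same as over all genes to 2 decimals, and MAPK3, which encodes ERK1, was at -0.22 (limma adjusted p = 0.379).

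Among regulators of the PEA3 factors, the repressor gene CIC had a level of 7.21 ± 0.09 in control, against 7.23 ± 0.04 with the combination (limma adjusted p = 0.955). The ligase genes COP1 (0.21, adjusted p = 0.476), DET1 (0.02, adjusted p = 0.964) and DDB1 (-0.29, adjusted p = 0.347) were not called there either. The mean of its probe sets put DET1 at 0.69 (adjusted p = 0.11, over a range of 0.11 to 0.993 among the alternatives). Without 1 array in turn COP1 ran from 0.075 to 0.355 and DDB1 from -0.39 to -0.19. Of the 10 listed, 8 passed the filter and TRIB2 was called. TRIB2, a pseudokinase known to bring substrates to COP1, read 9.82 and 9.98 for control, 8.55 and 8.68 for LY2784544, 9.81 and 9.92 for GRN163L and 9.50 and 8.83 for the combination. The LY2784544 pair was lowest, and GRN163L overlapped control. TRIB2 fell by 1.28 with LY2784544 against control (SE 0.22, adjusted p = 0.0331), where 0.883% of genes were called lower, and by 1.25 against GRN163L (adjusted p = 0.0398), where 0.819% were. The first call was lost without any one of the control, LY2784544 or GRN163L arrays (0.0768 to 0.158) and on one median (0.0637), over a range of 0.00878 to 0.158. The second was lost without any one of those arrays (0.0663 to 0.279) and on one median (0.0749), over a range of 0.0115 to 0.279. The change of TRIB2 in the combination against control was -0.73 (adjusted p = 0.0991, or 0.0457 when experiment 1 lost its LY2784544 and combination arrays), over a range of 0.0457 to 0.307.

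Of 20 genes reported as PEA3 targets in other cells, such as matrix metalloproteases and cyclins, 13 passed the filter and none was called in the 7 comparisons. With the experiment as a block PTGS2, CXCR4 and VIM were called lower in the combination against control, where 8.15% of all genes were, and PTGS2 also against LY2784544, where 1.03% were. In the combination against control 9 of the 13 were lower, with a median of -0.46. The brightest 4 were the cyclin genes CCND3 (-0.46, limma adjusted p = 0.156) and CCND2 (-0.62, adjusted p = 0.224), the intermediate filament gene VIM (-0.89, adjusted p = 0.0594, or 0.033 with the block and 0.0385 without either LY2784544 array, over a range of 0.033 to 0.256) and the adhesion molecule gene ICAM1 (-0.93, adjusted p = 0.198, or 0.0465 with those same 2 arrays of experiment 1 left out, over a range of 0.0465 to 0.468). Without the combination array of experiment 2 CCND2 was at -0.22, and without that of experiment 1 at -1.02 and CCND3 at -0.275. VIM was at -0.81 with LY2784544 alone and -0.12 with GRN163L alone, and ETV4 at -0.34 and -1.14, none of them called. Over the 13 the medians were 0.005 with LY2784544 alone and -0.08 with GRN163L alone. Whether these genes follow the PEA3 factors was not tested. MMP1, MMP3 and MMP7 were below the filter.

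**Figure D3:**
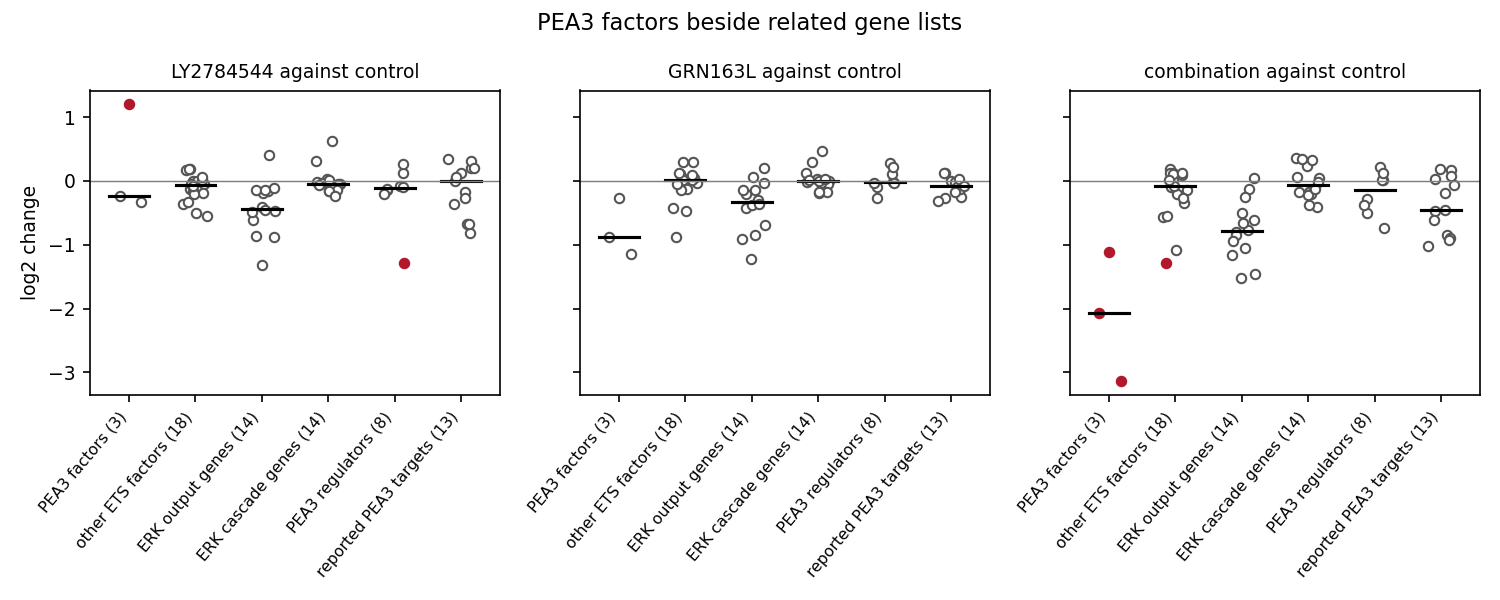
Log2 change against control with LY2784544, GRN163L and the combination for the PEA3 factors and 5 related gene lists, with 1 point per gene passing the filter (number in brackets), a bar for the list median and red for called genes. With the combination the PEA3 factors have a median of -2.06 and the ERK output genes one of -0.79, while the other ETS factors lie around -0.09.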

How the data were processed

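Total RNA from 8 cultures was labelled and hybridised to Affymetrix whole-transcript arrays. Per the submitters' processing notes the authors summarised the arrays with RMA in Affymetrix Expression Console, and the deposited values are log2 signals rounded to 2 decimals. RMA removes background, makes the arrays' distributions equal and combines probes into probe sets, and it compresses differences between dim signals. The log base was taken from the range of the values. The program's version is not given in the sources used here.

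Of 33297 probe sets, 19181 named exactly 1 gene in the platform annotation, and the one with the highest mean stood for its gene (17958 genes). Genes under the 30th percentile of mean level (4.37) were left out, which left 12570. All arrays entered 1 limma model (version 3.58.1, R 4.3.3) with a mean per group, which was tested on simulated data. The simulated noise was independent between arrays, so that test cannot speak to arrays that share an experiment. Residual degrees of freedom were 4, and moderation added 4.65. "Called" means a Benjamini-Hochberg adjusted p below 0.05 over all 12570 genes, and intervals are at 95%. Experiment numbers in the labels pair the arrays. Deviations from group means of same-experiment arrays correlated across genes by 0.10 to 0.67. The experiment as a block, no filter, the mean of probe sets, one median for all arrays, a variance trend, a fit on the compared groups and leaving out each array were the alternatives. The members and gene lists were chosen with earlier results of these data known, and the promoter motifs after the windows had been seen. Named were the 3 factors, every listed gene called in a comparison, up to 4 genes of each list taken by name or by highest mean level, and the 5 genes most correlated with each factor.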

Additional observations from a re-analysis of the deposited data

Results flagged for a closer look

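ETV1 was singled out because LY2784544 raised it in both experiments when given alone (1.48 and 0.92) and lowered it in both when GRN163L was present (-0.86 and -0.82). The test of that difference, the interaction, gave -2.04 and did not pass (limma adjusted p = 0.152). The same opposite signs, at far smaller size, were seen for ETS2 (interaction 0.20) and DET1 (-0.35). For GRN163L without and with LY2784544 they were seen for TRIB2 (0.58) and DUSP4 (0.49). The adjusted p of each of these 4 was 0.999.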

How the results depend on the processing

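Each PEA3 factor had 14 or 15 alternatives per comparison, 312 values in all. Of these, 282 kept their direction and their status as called or not called, 29 lost the call and 1 reversed. All 29 losses fell on results called in the main fit. The 282 include many results not called there, which had no call to lose, so 282 of 312 is not the share of calls that held. With the replicate block, which the labels' experiments support, no factor changed its call, while the genes called numbered 345 for LY2784544 against control, 1382 for the combination against control, 201 for it against LY2784544, 212 for it against GRN163L and 441 between the single agents. In fits of the compared groups alone, which leave 2 residual degrees of freedom, those counts were 79, 153 and 0 for the first 3, with 6 for GRN163L against control. The calls lost there were those of ETV1 against control (1.20 with LY2784544, -1.11 with the combination) and of all 3 factors in the combination against LY2784544 (-2.31 for ETV1, -2.80 for ETV4, -1.83 for ETV5). With experiment 1 stripped of its LY2784544 and combination arrays (a setting added after the data had been seen) the counts were 6 for GRN163L against control, 217 for the combination against control and 12 for it against LY2784544. That setting ended the calls of ETV1 against control (1.04 and -0.98) and of ETV5 in the combination against LY2784544 (-1.47). One median for all arrays gave 36 genes for the combination against GRN163L, and put ETS1 at 0.04 and ETV6 at 0.095 in the combination against control.

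Without 1 array in turn, ETV1 ran from 1.04 to 1.35 with LY2784544, from -1.25 to -0.98 with the combination and from 1.32 to 1.63 between the single agents. ETV4 ran from -2.28 to -1.71 in the combination against GRN163L. ETV5 ran from -0.58 to 0.11 with LY2784544, from -2.42 to -1.71 with the combination and from -2.05 to -1.61 for the combination against LY2784544. In the combination against control ELF1 ran from -0.14 to 0.38, ETV6 from -0.20 to 0.04, CIC from -0.045 to 0.085 and DET1 from -0.155 to 0.195.

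Counts of genes called ran from 0 (without the second control array) to 212 for LY2784544 against control, from 57 (again without that array) to 538 for the combination against control, and from 16 (without either GRN163L array) to 45 for the combination against LY2784544. Against GRN163L they ran from 0 (without its array of experiment 1) to 88 for the combination and from 0 (likewise) to 211 for LY2784544, and for the interaction from 0 to 8 (without the LY2784544 array of experiment 2). All of these ranges are over the fits without 1 array in turn, and other alternatives lay outside some of them. The cause of these changes in the counts was not tested. The number of arrays limits the precision, and ETV1 with the combination lies near the dim end of the signals.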
